A study of Mus musculus with 4 samples.

Results

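Formyl peptide and complement receptors let phagocytes sense bacteria and inflamed tissue, and their transcripts were followed in myeloid cells of mice with and without a LysM-Cre deletion of PD-1. The members are 7 genes, Fpr1, Fpr2, C5ar1, C5ar2, C3ar1, Ptafr and Cfp, taken by their symbols from the 24706 genes measured. The data are 4 RNA-seq libraries labelled as myeloid cells from mouse fetal liver, 2 of PD-1f/f mice (called wt in the labels, replicates wt1 and wt2) and 2 of PD-1f/f; LysM-Cre mice (called cko, replicates cko1 and cko2). In all 4 the label gives myeloid cells, and in the cko mice Cre is driven by the lysozyme M gene (Lyz2), which is active in granulocytes, monocytes and macrophages. The study's results describe CD11b+ cells sorted from the liver on postnatal day 3, its methods describe RNA of livers on postnatal day 2 and wild-type controls, and no source used here says whether the libraries came from separate animals or pools. P-values therefore measure only the spread between these libraries, which may be technical. The study asked what PD-1 does in myeloid cells during early development, and the comparison of cko with wt libraries addresses how the transcripts of these receptors differed between the genotypes.

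Neutrophils, monocytes and macrophages find their targets with G protein-coupled receptors that read chemoattractant gradients. Formyl peptides come from bacteria and from damaged mitochondria, C3a and C5a are fragments cut from complement proteins C3 and C5, and platelet-activating factor is a lipid made by activated cells. Binding releases G protein subunits that raise cytosolic calcium and drive migration, degranulation and the oxidative burst. Properdin, the product of Cfp, is not a receptor. It is a plasma protein, stored and released by neutrophils, that stabilises the C3 convertase of the alternative complement pathway and so acts upstream of C3a and C5a.

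The annotation that came with the values gave the 6 receptors a seven-transmembrane domain (Pfam 7tm_1) and Cfp thrombospondin type 1 repeats (TSP_1). Inflammatory response was a gene ontology term of 6 members, all the receptors. Response to lipopolysaccharide was a term of 2 members, C5ar1 and Ptafr, and phospholipase C activation and a rise in cytosolic calcium were terms of 5, the receptors other than Ptafr. A term shows only what was annotated, so that its absence for Ptafr does not mean that the function is lacking. C5ar2 carries these terms although, as described below, it does not couple to G proteins.

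The members lie on 5 chromosomes, and the receptors of one ligand class lie side by side. Positions are those of the deposited files, which for the members are identical to GENCODE M21 on GRCm38. Fpr1 lies on chromosome 17 from 17876471 to 17883940 on the minus strand and Fpr2 from 17887824 to 17893952 on the plus strand, so that the genes point away from each other with 3883 bases between them. C5ar2 lies on chromosome 7 from 16234585 to 16244154 and C5ar1 from 16246743 to 16259540, both on the minus strand with 2588 bases between them. C3ar1 lies on chromosome 6 from 122847138 to 122856161 (minus strand), Ptafr on chromosome 4 from 132564067 to 132582683 (plus strand) and Cfp on chromosome X from 20925454 to 20931555 (minus strand). All are annotated as protein-coding.

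The values of Fpr2 carry a limit of their own. It overlaps Fpr3 on the same strand, and of its 50-base words 31.5% also occur in transcripts of Fpr1, Fpr3 or Gm5966. Reads from these words cannot be assigned to 1 gene by sequence, and how the counting treated them is not known. Fpr1 shares only 1 of its 1275 words, with Fpr2. The same share was 4.39% for C5ar2, which overlaps the small gene Gm26473, 1.64% for Ptafr, 0.0784% for Fpr1 and 0% for C5ar1, C3ar1 and Cfp.

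The bases before the start site are shown for the members that stood at the ends of the comparison, Ptafr with the largest difference upward and C5ar2 with the largest downward. Both are the 250 bases upstream of the RefSeq start (GRCm38.p6), 5′ to 3′ on the gene's strand, at chr4:132563817-132564066 (plus strand) for Ptafr and at chr7:16244155-16244404 (minus strand) for C5ar2. Capitals mark letters that match GAGGAA (PU.1) on either strand in Ptafr and the C/EBP letters TTNNGCAA on either strand in C5ar2.
Ptafr: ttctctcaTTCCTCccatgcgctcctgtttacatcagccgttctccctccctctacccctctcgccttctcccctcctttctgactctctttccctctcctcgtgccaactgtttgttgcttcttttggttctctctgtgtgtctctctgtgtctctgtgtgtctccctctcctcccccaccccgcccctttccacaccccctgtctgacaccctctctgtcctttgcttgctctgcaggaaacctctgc
C5ar2: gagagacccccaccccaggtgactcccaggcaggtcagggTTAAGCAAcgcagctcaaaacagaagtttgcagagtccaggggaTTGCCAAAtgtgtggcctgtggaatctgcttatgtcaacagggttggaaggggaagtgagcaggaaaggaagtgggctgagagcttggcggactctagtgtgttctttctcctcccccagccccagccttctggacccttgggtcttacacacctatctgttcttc
In Ptafr the PU.1 letters begin 242 bases before the start, and in C5ar2 the C/EBP letters begin 210 and 166 bases before it. The PU.1 letters occur in 23.3% of 32851 RefSeq promoter windows of the same length, the C/EBP letters in 9.56%, TGANTCA (AP-1) in 6.75% and the NF-κB motif in 7.25%. Of the other members, Fpr2 held the PU.1 letters 19 bases before its start and C3ar1 the AP-1 letters 22 bases before it, and a second RefSeq start of C5ar2 held the PU.1 letters 26 bases before it. In the windows of Fpr1, C5ar1 and Cfp none of these letters were found, and the RefSeq start of C5ar1 lies 202 bases inside the gene as deposited. No match overlapped a match of another motif. These are matches of letters, and no binding was measured.

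Depth was similar in all libraries. The deposited unit is FPKM, reads corrected for the exon length of the gene and for the depth of the library, and the whole reads behind the values were recovered, with totals of 17691505 to 22212407 per library. The targeted gene, Pdcd1, had 28.5 and 34.7 FPKM in wt and 17.1 and 21.4 FPKM in cko libraries, a log2 difference of -0.69 (adjusted p = 0.218, limma), and Lyz2, the site of the Cre knock-in, had 31306 and 32147 against 10422 and 8127 FPKM. The 10 most abundant genes took 46.6% and 42.3% of all FPKM in wt and 33.1% and 29.4% in cko libraries. The first principal component (55.1% of the variance) separated the groups, with wt1 at -26.7, wt2 at -22.2, cko1 at 11.4 and cko2 at 37.4. The cko libraries lay farther from each other on it than the wt libraries did. Library wt2 alone carried Y-linked transcripts (Ddx3y at 24.9 FPKM against at most 0.00866). The integrin chain CD11b, encoded by Itgam, had 51.4, 54.3, 48.5 and 49.4 FPKM in wt1, wt2, cko1 and cko2.

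**Figure D1:**
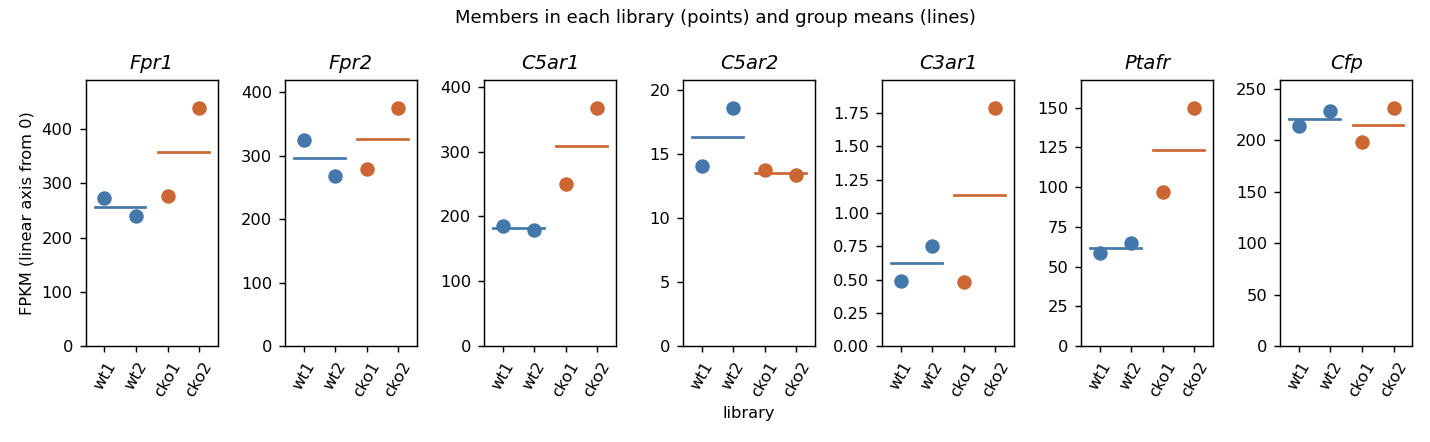
FPKM of the 7 members in each library (points, 1 panel per gene with its own linear axis from 0) with the mean of each group (lines), wt in blue and cko in orange. For Fpr1, C5ar1 and Ptafr both cko points lie above both wt points, though for Fpr1 cko1 exceeds wt1 by little. Library cko2 is the highest for every member but C5ar2.

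Most of these receptors were abundant transcripts. In the wt libraries the order by FPKM was Fpr2, Fpr1, Cfp, C5ar1, Ptafr, C5ar2 and C3ar1, in each library alike. Fpr2 averaged 297 ± 39.3 FPKM (SD, n = 2) and Fpr1 257 ± 23.2, with values that overlapped. Cfp followed at 221 ± 10.2, C5ar1 at 182 ± 5.09 and Ptafr at 61.7 ± 4.79, each below the next higher member in both wt libraries. C5ar2 stood at 16.3 ± 3.18 FPKM, and C3ar1 was the lowest at 0.622 ± 0.185. In the cko libraries C5ar1 stood above Cfp in both, and the order of the means was Fpr1 (358 ± 114), Fpr2 (327 ± 67.7), C5ar1 (308 ± 82.9), Cfp (215 ± 22.9), Ptafr (123 ± 37.1), C5ar2 (13.5 ± 0.255) and C3ar1 (1.13 ± 0.921). The first 3 of these overlapped. In wt1 only 103 of the 24706 genes had more FPKM than Fpr2 and 121 more than Fpr1, against 2895 for C5ar2 and 12315 for C3ar1.

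Groups were compared with limma on log2(FPKM + 1) in the 10779 genes that averaged 1 FPKM or more, among them 6 members. At |log2FC| of at least 1 with an adjusted p under 0.05, 0 of the 6 passed, where over all tested genes 0 genes (0%) passed, 1768 had an unadjusted p under 0.05 and 2 genes passed by voom on the recovered reads. At |log2FC| above 1 with an unadjusted p under 0.01, 0 of the 6 passed as well, against 2.29% of all tested genes in either direction. With an unadjusted p under 0.05, 2 members were higher in cko, Ptafr and C5ar1, beside 11.4% of all tested genes, and 0 were lower, beside 4.95%. Both cko libraries lay above both wt libraries for 3 members (Fpr1, C5ar1 and Ptafr), beside 33.6% of all tested genes, and below them for 1 (C5ar2), beside 18%. The median log2 difference was 0.29 over the 6 members and 0.09 over all tested genes. With 2 libraries a group, the smallest two-sided p of an exact permutation test of 1 gene is 0.333.

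Ptafr, the receptor of platelet-activating factor, had the largest difference of the members. It had 58.3 FPKM in wt1, 65.1 in wt2, 97.2 in cko1 and 149.6 in cko2, from 4711, 4456, 6624 and 9627 reads. Both cko libraries lay above both wt libraries, and the cko libraries differed from each other by more than the wt libraries did. The ratio of the group means was 2.00, and the log2 difference was 0.96 with a standard error of 0.23 and a 95% interval of 0.38 to 1.53 (unadjusted p = 0.00700, adjusted p = 0.214, limma). Without cko2 it was 0.65, and without cko1 it was 1.27. In these fits the cko group is a single library that is assumed to vary like the wt libraries, which alone supply the spread, and they are given for the size of the difference only. The log2 difference was 0.88 without wt1 and 1.04 without wt2, the library with Y-linked transcripts. There the wt group is a single library, and these values too are given for size only. Median-of-ratios scaling of the libraries gave 0.85 and quantile normalization 0.83.

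C5ar1, the G protein-coupled receptor of the anaphylatoxin C5a, had 185.5 and 178.3 FPKM in wt1 and wt2 and 249.4 and 366.6 FPKM in cko1 and cko2 (10590, 8626, 12013 and 16669 reads). The wt values lay close together, and both cko values lay above them. The ratio of the means was 1.69 and the log2 difference 0.73, with a standard error of 0.21 and a 95% interval of 0.21 to 1.25 (unadjusted p = 0.0147, adjusted p = 0.228, limma). It was 0.45 without cko2 and 1.01 without cko1. Without wt1 it was 0.76 and without wt2 0.70, where 1 group is again a single library and only the size is given. Median-of-ratios scaling gave 0.62 and quantile normalization 0.58.

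C5ar2 binds C5a as well but does not couple to G proteins, and it is known to recruit arrestin and to temper C5a signals. Its values were 14.0 FPKM in wt1, 18.5 in wt2, 13.7 in cko1 and 13.3 in cko2, from 1111, 1243, 915 and 841 reads. Both cko libraries lay below both wt libraries, although wt1 and cko1 were almost level. The log2 difference was -0.24 with a 95% interval of -0.70 to 0.22 (unadjusted p = 0.245, adjusted p = 0.538, limma). The interval holds differences in either direction, so that no change was detectable with these libraries.

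Within each library the C5a receptors were at unequal levels, and the ratio of C5ar1 to C5ar2 on the FPKM scale was 13.2 in wt1, 9.62 in wt2, 18.2 in cko1 and 27.5 in cko2. Both cko ratios lay above both wt ratios. Since the ratio is taken inside a library it does not depend on how the libraries are scaled to each other. The ratio is given as a description, and no model was fitted to it.

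Fpr1, the high-affinity receptor of formylated peptides, had 273.7, 240.9, 277.1 and 438.6 FPKM in wt1, wt2, cko1 and cko2 (8049, 6003, 6875 and 10273 reads). The cko libraries lay above the wt libraries, but cko1 exceeded wt1 by little. The log2 difference was 0.44 with a 95% interval of -0.16 to 1.04 (unadjusted p = 0.122, adjusted p = 0.411, limma), and it was 0.11 without cko2 and 0.77 without cko1. With erythroid and hepatocyte genes removed and each library then scaled to the same FPKM sum it was 0.65 (unadjusted p = 0.04003, limma). The FPKM sums of all genes were 491983 and 457127 in wt and 412778 and 403900 in cko libraries. Scaling to equal sums thus raises cko against wt for every gene.

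Fpr2, which also binds annexin A1, serum amyloid A and lipid mediators, had 324.5 FPKM in wt1, 268.9 in wt2, 279.1 in cko1 and 374.8 in cko2, from 9342, 6559, 6779 and 8593 reads. The groups overlapped, with both wt libraries below cko2 and wt2 below both cko values. The log2 difference was 0.13 with a 95% interval of -0.36 to 0.62 (unadjusted p = 0.534, adjusted p = 0.768, limma), and its sign changed under quantile normalization, without cko2 and without wt2. The ratio of Fpr1 to Fpr2 was 0.843 in wt1, 0.896 in wt2, 0.993 in cko1 and 1.17 in cko2, so that Fpr2 led in both wt libraries and Fpr1 led in cko2.

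C3ar1, the receptor of the anaphylatoxin C3a, was the least abundant member and lay below the mean of 1 FPKM required for the test. It had 0.492 FPKM in wt1, 0.753 in wt2, 0.483 in cko1 and 1.79 in cko2, from only 47, 61, 39 and 136 reads. Corrected for library depth alone, as RPM, the level was 2.12 (95% Clopper-Pearson interval 1.55 to 2.81) in wt1, 3.24 (2.48 to 4.16) in wt2, 2.08 (1.48 to 2.84) in cko1 and 7.69 (6.45 to 9.09) in cko2, where the intervals cover counting error only. The interval of cko2 lay above those of the other libraries, while cko1 lay at the level of wt1, so that the groups overlapped. A fit without the filter gave a log2 difference of 0.33 with a 95% interval of -0.72 to 1.38 (unadjusted p = 0.441, limma).

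Cfp, the properdin gene, was the most even member. It had 213.9 FPKM in wt1, 228.4 in wt2, 198.9 in cko1 and 231.3 in cko2, from 8248, 7462, 6472 and 7103 reads. The cko libraries bracketed the wt libraries. The log2 difference was -0.043 with a 95% interval of -0.40 to 0.32 (unadjusted p = 0.778, adjusted p = 0.908, limma), so that differences above 0.32 or below -0.40 lay outside the interval. The sign changed without wt2 (0.0040) and without cko1 (0.065). It also changed with erythroid and hepatocyte genes removed and the libraries scaled to equal FPKM sums (0.17). The ratio of Ptafr to Cfp was 0.273, 0.285, 0.489 and 0.647 in wt1, wt2, cko1 and cko2, higher in both cko libraries.

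**Figure D2:**
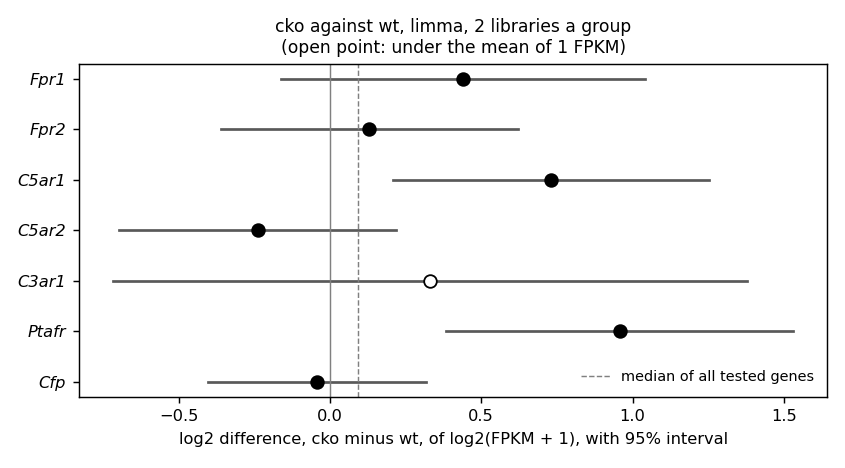
Log2 difference of cko minus wt on the log2(FPKM + 1) scale for each member (points) with its 95% interval from limma (lines), with the open point for C3ar1, which lies under the mean of 1 FPKM. The intervals of C5ar1 (0.21 to 1.25) and Ptafr (0.38 to 1.53) lie above 0 and above the dashed line at the median of all tested genes, 0.09, and the other 5 cross 0.

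The make-up of the receptor transcripts can be read inside each library. The summed FPKM of the 6 receptors was 857 in wt1, 772 in wt2, 917 in cko1 and 1345 in cko2. Fpr1 took a nearly even share of this sum, 32.0%, 31.2%, 30.2% and 32.6%. Fpr2 took 37.9% and 34.8% in wt and 30.4% and 27.9% in cko libraries, lower in both cko libraries. The share of C5ar1 was 21.7% and 23.1% in wt and 27.2% and 27.3% in cko, and that of Ptafr was 6.81% and 8.43% in wt and 10.6% and 11.1% in cko, both higher in the cko libraries. C5ar2 took 1.64% and 2.40% in wt and 1.495% and 0.993% in cko. Shares of one sum are not independent of each other, and with 2 libraries a group they are given without a test.

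**Figure D3:**
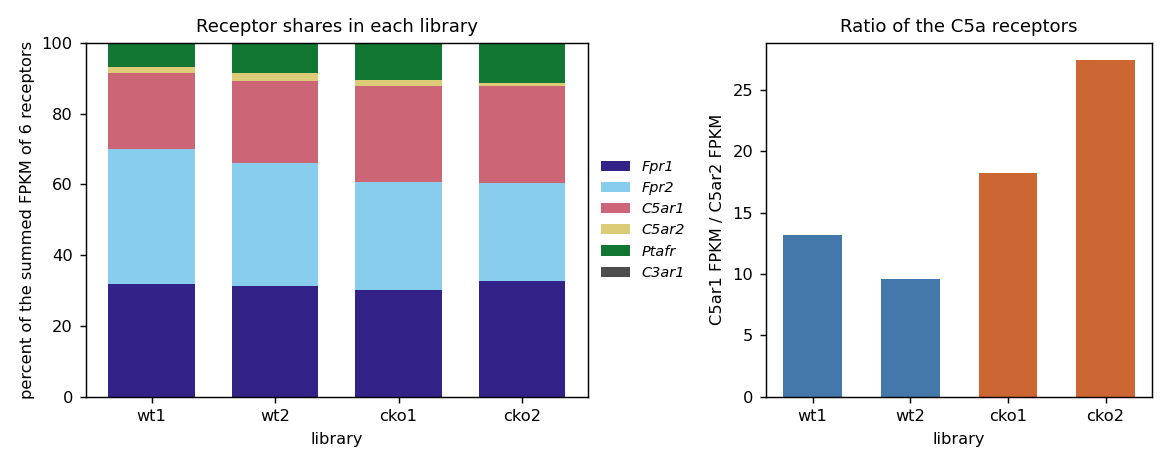
Left, percent of the summed FPKM of the 6 receptors taken by each receptor in each library (stacked bars, where C3ar1 with at most 0.133% is too thin to see). Right, ratio of C5ar1 to C5ar2 FPKM in each library (bars from 0), which is 13.2 and 9.62 in wt and 18.2 and 27.5 in cko libraries.

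Profiles over the 4 libraries were compared by the Euclidean distance between centred log2(FPKM + 1) values. Among the members C5ar1 and Ptafr were the closest pair (0.276), followed by Fpr1 and C5ar1 (0.313), and C5ar2 and Ptafr were the farthest (1.29). Over all tested genes the nearest to Ptafr were Mapkapk2 (27.8, 30.8, 47.9 and 70.4 FPKM in wt1, wt2, cko1 and cko2), Picalm and Cdkn1a, at distances of 0.0524 to 0.0721. The nearest to C5ar1 were Mirt2 (119, 112, 157 and 228 FPKM), Plekho2 and Pou2f2. For Fpr1 they were M6pr, Adamts1 and AC126687.1, for Fpr2 Gm14537, Man1a2 and Pld3, for C5ar2 Homez, Cnot6l and Zbtb44, and for Cfp Dram1, Prmt5 and Sin3b. With 4 points a profile, these names describe likeness over these libraries only.

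The genes around the receptors were counted from lists. Over all tested genes 11.4% had an unadjusted limma p under 0.05 and were higher in cko, and 4.95% were lower. The list counts rest on few genes and are given beside these shares as description. Of the 5 other formyl peptide receptor genes of the list 2 had values, and both stayed below the mean of 1 FPKM and were not tested. Fpr3 was listed at 0.0355, 0, 0.715 and 0 FPKM in wt1, wt2, cko1 and cko2, with the same limit on its reads as Fpr2, and Fpr-rs4 at 0.0549 FPKM in cko1 and 0 elsewhere. Of the ligands of formyl peptide receptors 4 were tested, with a median log2 difference of -0.20. With an unadjusted p under 0.05, 2 of them (Camp and Anxa1) were lower and 1 (Saa3) was higher in cko. Camp and Saa3 passed |log2FC| above 1 with an unadjusted p under 0.01, beside 2.29% of all tested genes in either direction. Saa3 reached the mean of 1 FPKM required for the test only through the cko libraries, so that its call and its part in the median carry no weight. Camp, whose peptide CRAMP is a granule product that binds Fpr2, had 19301 and 17673 FPKM in wt and 9260 and 7948 in cko libraries (log2 difference -1.11, standard error 0.17, adjusted p = 0.183, limma). Saa3, a serum amyloid A gene, had 0.518 and 0.0408 against 2.56 and 11.1 FPKM (log2 difference 2.39, standard error 0.59, adjusted p = 0.214, limma), with most of the level in cko2. Anxa1, which encodes the Fpr2 ligand annexin A1, had 3871, 3303, 2220 and 2027 FPKM in wt1, wt2, cko1 and cko2 (-0.75, adjusted p = 0.205, limma), lower in both cko libraries.

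Platelet-activating factor metabolism, the pathway of the Ptafr ligand, had 7 tested genes with a median of 0.32. Of these 2 had an unadjusted p under 0.05, both higher, beside 11.4% of all tested genes. None passed |log2FC| above 1 with an unadjusted p under 0.01, beside 2.29% of all tested genes. Pla2g7, the secreted acetylhydrolase that inactivates the ligand, had 26.9, 25.4, 43.5 and 105 FPKM in wt1, wt2, cko1 and cko2 (1.34, unadjusted p = 0.0170, adjusted p = 0.235, limma). Lpcat2, which makes the ligand in activated leukocytes, had 70.1, 95.7, 85.5 and 156 FPKM, and its groups overlapped. Pafah1b1, a subunit of the intracellular acetylhydrolase, had 6.59 and 6.23 FPKM in wt and 9.41 and 9.38 in cko libraries. Lpcat1, an acyltransferase that can also make the ligand, had 7.12 and 7.73 against 10.3 and 8.74 FPKM.

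Complement components had 6 tested genes with a median of 0.12, of which 1 had an unadjusted p under 0.05 and was higher, beside 11.4% of all tested genes. Complement receptors and regulators had 12 with a median of -0.048, of which 1 had such a p and was lower, beside 4.95%. C3, the source of C3a, had 149 and 155 FPKM in wt and 180 and 159 FPKM in cko libraries (0.15, adjusted p = 0.602, limma), whereas Hc, which encodes C5, stayed below 0.874 FPKM in every library. C1qc, a chain of the C1q recognition protein, had 8.67, 8.20, 10.6 and 15.6 FPKM. The log2 differences of C1ra (0.57) and C8g (-0.32) had unadjusted limma p above 0.05, as had those of Cd93 (0.35) and Serping1 (-0.52). Serping1 reached the mean of 1 FPKM only through the wt libraries (1.65 and 1.81 against 0.551 and 1.34 FPKM), so that its difference carries no weight. Cd59a, an inhibitor of the membrane attack complex, had 16.2, 7.77, 5.16 and 4.56 FPKM in wt1, wt2, cko1 and cko2 (-1.07, unadjusted p = 0.0202, adjusted p = 0.245, limma). Itgb2, the chain that pairs with CD11b in complement receptor 3, had 491, 539, 536 and 497 FPKM, and its groups overlapped.

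Chemoattractant receptor signalling, the G protein subunits, kinases, arrestins and regulators downstream of the receptors, had 27 tested genes with a median of 0.18. Of these 5 had an unadjusted p under 0.05 and were higher, beside 11.4% of all tested genes, and 2 were lower, beside 4.95%. None passed |log2FC| above 1 with an unadjusted p under 0.01, beside 2.29%. Gnb1, a G protein beta subunit, had 61.5 and 48.2 FPKM in wt and 121 and 90.0 FPKM in cko libraries, and Grk5, a kinase of activated receptors, 0.896 and 0.638 against 0.944 and 3.55 FPKM, above 1 FPKM in cko2 alone. Rgs18, which shortens G protein signals, had 129.7 and 99.95 against 57.9 and 59.4 FPKM (-0.95, adjusted p = 0.198, limma).

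Other leukocyte chemoattractant receptors had 9 tested genes with a median of 0.37. With an unadjusted p under 0.05, 2 were higher, beside 11.4% of all tested genes, and 1 was lower, beside 4.95%. None passed |log2FC| above 1 with an unadjusted p under 0.01, beside 2.29%. Cxcr2, the chemokine receptor of mature neutrophils, had 199, 179, 230 and 317 FPKM in wt1, wt2, cko1 and cko2 (0.51, adjusted p = 0.281, limma). Cxcr4, which holds neutrophils in the marrow, had 18.1 and 21.1 against 12.5 and 8.50 FPKM (-0.86, adjusted p = 0.214, limma). P2ry6, a receptor of the nucleotide UDP, had 8.59 and 6.16 against 11.1 and 13.2 FPKM. Gpr35 had 7.33, 4.42, 8.95 and 38.9 FPKM, mostly in cko2.

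**Figure D4:**
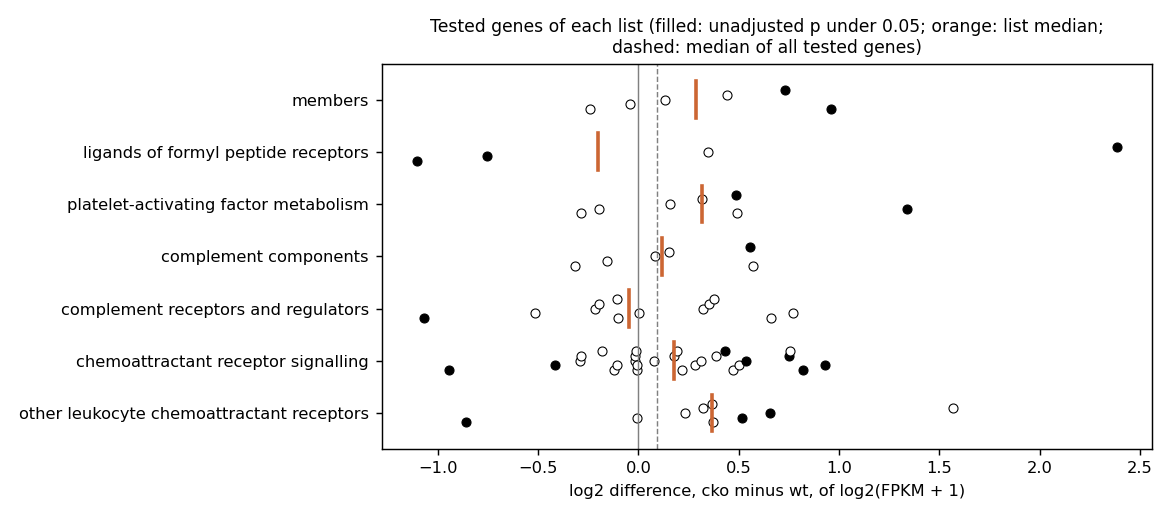
Log2 difference of cko minus wt on the log2(FPKM + 1) scale for each tested gene (points) of the members and 6 lists, filled where the unadjusted limma p is under 0.05, with the list median (orange line) and the median of all tested genes (dashed line, 0.09). The members' median is 0.29, and filled points lie on both sides of 0 for the ligands, the signalling genes and the other chemoattractant receptors.

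Markers of the cell types that the libraries could hold differed between the groups. The 10 monocyte markers summed to 651 and 568 FPKM in wt and 672 and 1096 in cko libraries, highest in cko2 like every member but C5ar2. Of the 10, 9 had a log2 difference above 0, where the median of all tested genes was 0.09. Cd14 alone had 123, 65.0, 151 and 439 FPKM in wt1, wt2, cko1 and cko2, while Ly6c2 was lower in both cko libraries. The 14 late neutrophil markers, which include Camp and Cxcr2, summed to 163168 and 139041 against 112141 and 93304 FPKM, with 11 of 14 below 0. Camp was among those below 0, whereas Cxcr2, Csf3r and Lcn2 were higher in both cko libraries. The 8 early neutrophil markers summed to 1851 and 1924 against 2614 and 1992, with 5 above 0. Macrophage markers summed to 425 and 298 against 294 and 474, also highest in cko2, with 6 of 11 tested above 0. Erythroid markers summed to 3780 and 2378 against 1452 and 1553 FPKM, with 12 of 13 below 0, and hepatocyte markers to 115 and 182 against 80.7 and 93.0, with 11 of 12 below 0. The T cell markers summed to 4.05 to 9.37 FPKM (2 of 2 tested below 0), the B cell markers to 34.7 to 69.5 (6 of 6 below 0), and those of mast cells, basophils and eosinophils to 125 to 313 (4 of 7 below 0). Lck, a tested T cell marker, reached the mean of 1 FPKM only through the wt libraries (1.40 and 1.47 against 0.565 and 0.579 FPKM). The same holds for the hepatocyte marker Ttr (0.739 and 2.00 against 0.481 and 0.927 FPKM), so that their places below 0 carry no weight. No marker present in the files was at 0 in all libraries. In bulk samples fewer cells of a type and less RNA per cell cannot be told apart, and the part of these markers in the differences of the receptors was not tested.

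The dependence of the member values on single libraries and on scaling is shown in the plot of member differences by setting. The log2 difference of Ptafr lay between 0.65 and 1.27 and that of C5ar1 between 0.45 and 1.01 over 16 alternatives. That of Fpr1 lay between 0.11 and 0.77, that of C5ar2 between -0.43 and -0.041, and those of Fpr2 (-0.082 to 0.34) and Cfp (-0.16 to 0.17) crossed 0. The filters, no trend and the replicate blocks leave the log2 difference itself unchanged. Where the groups do not overlap (Ptafr, C5ar1, Fpr1 and C5ar2), omissions, pseudocounts and the ratio of means cannot change its sign. For these genes only the scaling settings and voom could have changed the sign, and there it stayed.

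**Figure D5:**
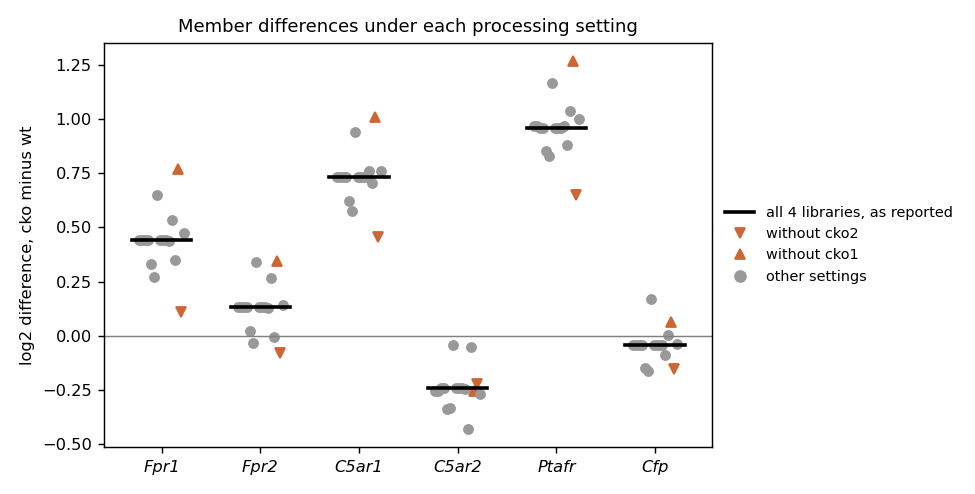
Log2 difference of cko minus wt for the 6 tested members with all 4 libraries (black lines) and under each alternative setting (points), with the omission of cko2 and of cko1 as orange triangles. Omitting cko2 gives the lowest value for Ptafr (0.65), C5ar1 (0.45), Fpr1 (0.11) and Fpr2 (-0.082), and omitting cko1 gives the highest value for each of these 4.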

How the data were processed

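RNA-seq was analysed for 4 libraries, grouped by their labels into wt (2) and cko (2). For every library the authors deposited a table of FPKM by gene. Per the labels' processing notes, Bowtie2 2.2.3, TopHat2 2.0.12, HTSeq 0.6.0 and build mm9 were used, yet 92.6% of the gene positions in the files are identical to GENCODE M21 (GRCm38). FPKM was not scaled between libraries, so a change in the most abundant genes moves all others. Reads were recovered from the steps of the values and GENCODE exon lengths, whole to within 0.02 reads for 91.3% of genes.

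The groups were compared with limma 3.58.1 under R 4.3.3 (trend, two-sided) on log2(FPKM + 1) where a gene averaged 1 FPKM or more, cko against wt without covariates, with Benjamini-Hochberg adjustment over 10779 genes. A pseudocount of 1 understates the differences of low genes. The members and the gene lists were chosen with earlier results of these data known. Named are all members, Pdcd1 and Lyz2, of each pathway list the genes past the unadjusted threshold (|log2FC| above 1, p under 0.01) or otherwise up to 4 with the largest difference among those whose groups do not overlap, and the 3 genes nearest to each member. Itgam, Itgb2, Anxa1, Lpcat2, Hc, Fpr3 and Fpr-rs4 were named for their function. Itgam occurs with 2 identifiers, of which the annotated gene was used. Some list genes named by this rule are not reported here. List genes without a row (Fpr-rs3, Fpr-rs6, Fpr-rs7, Saa1, Saa2, Fam3d, C7, C9, Cfd, Ahsp and Cd8a) were not analysed here. Sequences are RefSeq promoters (GRCm38.p6), found for all 7 members. Alternatives covered pseudocounts of 0.1 and 0.01, no filter, a minimum of 5 FPKM, quantile and median-of-ratios scaling, no trend, a replicate block, voom on reads and each library left out. A further alternative removed the erythroid and hepatocyte genes and scaled each library to the same FPKM sum. The crossed block and the ratio of mean FPKM were chosen after seeing the data. Figures were drawn with matplotlib 3.10.9.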

Additional observations from a re-analysis of the deposited data

How the results depend on the processing

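Of 98 alternative values of the members, 88 counted as kept, by direction and by side of the unadjusted threshold (|log2FC| above 1, p under 0.01). The ratio of mean FPKM has no test, and was counted by the size of its shift. The filters, no trend and the replicate blocks return the same log2 difference for a tested member, so that its direction could not change there. The count of 88 is therefore no measure of stability. The sign of Fpr2 changed under quantile normalization (-0.032), and over the omissions of 1 library it ran from -0.082 to 0.34. Cfp became 0.17 with erythroid and hepatocyte genes removed and libraries scaled to equal sums, and ran from -0.15 to 0.065 over the omissions. Ptafr passed that threshold with erythroid and hepatocyte genes removed and libraries scaled to equal sums (1.17). Over the omissions Ptafr ran from 0.65 to 1.27 and C5ar1 from 0.45 to 1.01. Both also passed it without cko replicate 1, where the remaining cko library is assumed to vary like the wt libraries, whose close values alone supply the spread, so that these passes are no support. The number of members past it was thus 1 with those genes removed and 0 to 2 over the omissions. As the ratio of mean FPKM, C3ar1 stood at 0.87. The cause of these moves was not tested.

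Over all genes, 203 higher and 44 lower genes passed that threshold. The total was 126 among the 5813 genes that averaged 5 FPKM or more and 131 to 462 over the omissions, with 131 without cko2, 147 without wt1 and 462 without cko1. Median-of-ratios scaling, which moved the median of all genes from 0.09 to 0.0017, gave 144 higher and 66 lower, and quantile normalization 150 and 79. Removal of erythroid and hepatocyte genes with scaling to equal sums gave 350 and 17 at a median of 0.27. A replicate block on these numbers gave 258 genes and no member. No label says that equal numbers mark paired libraries, and the correlation of the replicate differences between groups was -0.163. With crossed numbers 363 passed. At |log2FC| of at least 1 with an adjusted p under 0.05 the count was 0 in all settings but the crossed block (1) and voom (2).

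The list medians depended on single libraries as well. The median of platelet-activating factor metabolism was 0.22 after median-of-ratios scaling and 0.060 to 0.37 over the omissions, lowest without cko2, and that of chemoattractant receptor signalling ran from 0.031 (without wt1) to 0.22. Complement components (0.12) stood at 0.011 after that scaling and ran from -0.011 (without cko2) to 0.25, and complement receptors and regulators (-0.048) stood at -0.15 and ran from -0.083 to 0.040, so that both changed sign. The ligands (-0.20) ran from -0.34 to -0.060 and the other chemoattractant receptors (0.37) from 0.18 to 0.58. Depth limits C3ar1, with 39 to 136 reads. Each other member has at least 841 reads in every library.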
